A study of Oryctolagus cuniculus with 34 samples.

Results

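Denervated muscle changes its surface channels and its gene regulators, and 5 genes linked to that response were followed here: KCNN3, SCN4A, RUNX1, HDAC4 and NCAM1. They are 5 of the 18176 genes counted, and all 5 were found by symbol. KCNN3 was chosen by its CPM (its count scaled to a common library total) in short-term repair over injury, so its values in the short-term comparisons and in short-term repair are given as a description and with no test. The other 4 genes came with it as genes of the same response.

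RNA was sequenced in bulk from 34 samples of the rabbit supraspinatus, a muscle of the rotator cuff at the shoulder. In the short term, 5 libraries came from muscle with the repair only, 5 from muscle with the repair and a matrix gel, and 4 from muscle with the injury only. In the long term, 5 came from the repair only, 5 from the repair with the gel, and 10 from uninjured muscle. The labels give no strain, age, sex, kind of injury or length of either term, and no injury-only group was labelled long term and no uninjured group short term. Whether replicates are separate animals is not stated in the labels, so the p-values measure the spread between these libraries, which may be technical in part.

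A muscle fibre depends on its nerve for the identity of its membrane. When contact with the nerve is lost, fibres make embryonic acetylcholine receptor subunits outside the synapse and a small-conductance potassium channel, and the myogenic factor MYOG rises. HDAC4 carries part of this signal from the silent membrane to the nucleus, where it lowers the repressor DACH2 and thereby releases MYOG. RUNX1 and NCAM1 are low in innervated adult fibres and are known to rise after denervation. Several of these genes are also made in fibres that regenerate or by other cells of the muscle. In bulk samples, fewer cells of a type and less RNA per cell cannot be told apart.

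The 14 short-term libraries held 26904529 to 32313295 counts each, and the 20 long-term ones 12582302 to 15019158. Levels below are CPM of a library's total count. Fitted log2 differences, first group minus second with their standard error (SE), use TMM-scaled library sizes, which correct for differences in composition. Adjusted p-values are Benjamini-Hochberg values of edgeR's quasi-likelihood test over all genes, with a threshold of 0.05. The 8 myofibre markers found of 10 listed summed to 53247 to 230245 CPM in every library, as in muscle tissue. By their distance over all tested genes, 2 of the 14 short-term libraries lay nearest to another group's mean. Repair replicate 4 lay nearest to the injury group (root mean square distance 0.736, against 1.33 from the other repair libraries). Injury replicate 3 lay nearest to the repair group (0.767, against 1.16 from the other injury libraries). The labels were kept as given, and whether the 2 libraries were exchanged was not tested. Short-term member differences that moved by over 1.5 times without them are given both ways, and other member values are given both ways where the text says so.

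KCNN3 encodes the pore-forming subunit of a small-conductance, calcium-activated potassium channel. In short-term repair its level was 152, 149, 113, 31.0 and 71.7 CPM in replicates 1 to 5. In short-term gel-treated muscle it was 57.2, 36.7, 74.6, 41.4 and 40.8 CPM, and in injured muscle 17.2, 19.4, 37.2 and 25.3 CPM. The 3 highest of the 14 libraries were repair libraries, but repair replicate 4 lay among the injury libraries, so the groups overlapped. On the TMM scale the overlap with the injury group was gone, a description only, since KCNN3 was chosen for its rise over injury. The injury libraries then held 23.3 to 27.4 CPM, the gel libraries 37.6 to 56.8 CPM and the repair libraries 38.5 to 111 CPM. Of 13526 genes, 1.02% lay higher in repair than in injury with no overlap on that scale, and 3.73% higher in gel-treated muscle than in injury.

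The fitted log2 difference of KCNN3 between short-term repair and injury was 1.63 (SE 0.28), the value that chose it. It was 1.74 without both libraries that lay nearest to another group. Gel-treated muscle lay between, with a log2 difference of 0.83 (SE 0.28) from injury and of -0.80 (SE 0.26) from repair. These 3 differences share their libraries, so they are not separate observations.

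Long-term KCNN3 stood at 50.5, 15.6, 63.6, 33.1 and 18.0 CPM in repaired muscle and at 44.3, 27.9, 21.0, 34.6 and 14.01 CPM in gel-treated muscle. The 10 uninjured libraries ranged from 12.1 to 39.6 CPM with a median of 27.4 CPM. The 3 long-term groups overlapped, and 2 repair libraries and 1 gel library lay above every uninjured one. Ordered by mean, the groups were short-term repair at 103 ± 51.9 CPM (SD, n = 5), short-term gel at 50.1 ± 15.7 (SD, n = 5), long-term repair at 36.2 ± 20.7 (SD, n = 5), long-term gel at 28.4 ± 11.7 (SD, n = 5), uninjured at 27.5 ± 9.01 (SD, n = 10) and short-term injury at 24.8 ± 8.96 (SD, n = 4). Each group overlapped its neighbour in this order.

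No long-term comparison passed for KCNN3. The log2 difference from uninjured muscle was 0.33 with the repair (SE 0.31, edgeR adjusted p = 0.802) and 0.21 with the gel (SE 0.31, edgeR adjusted p = 0.747). Between gel and repair the value was -0.11 (SE 0.36, edgeR adjusted p = 0.887). Between terms, gel-treated muscle differed by -0.40 (SE 0.33, edgeR adjusted p = 0.328, long minus short). Repaired muscle differed by -1.15 (SE 0.34), which is a description because it uses the repair libraries that chose the gene.

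**Figure D1:**
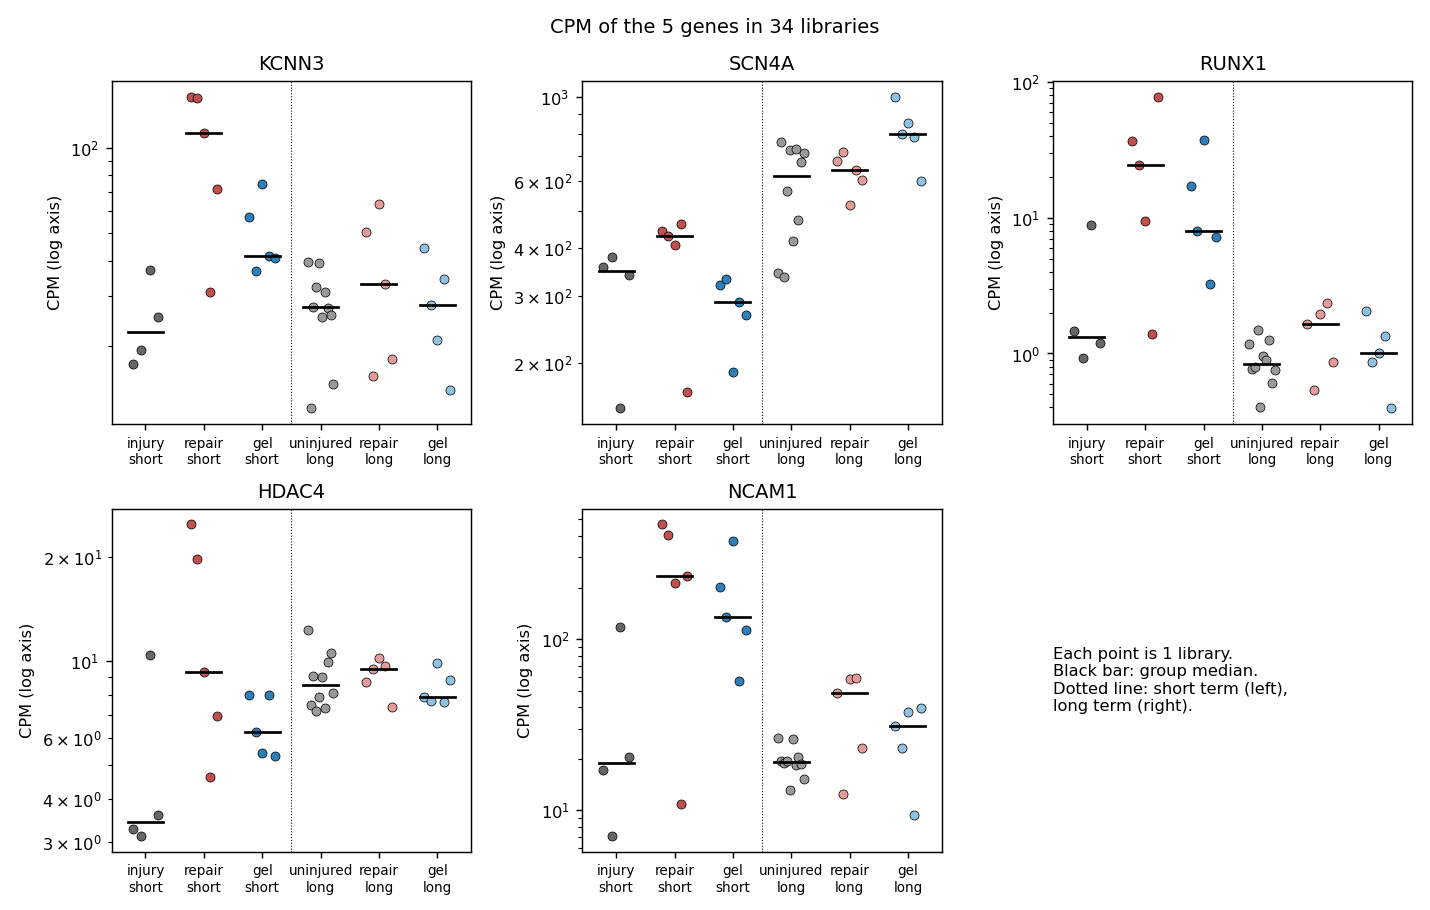
Level of each of the 5 genes in all 34 libraries, in CPM on a log axis, by group. Each point is 1 library and each black bar a group median; short-term groups stand left of the dotted line. KCNN3, RUNX1, HDAC4 and NCAM1 reach their highest values in short-term repair. Repair replicate 4 lies far below the other 4 repair libraries for NCAM1 (10.9 CPM) and RUNX1 (1.40 CPM).

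SCN4A encodes the adult skeletal muscle sodium channel, which carries the fibre's action potential. It did not show the short-term rise described for KCNN3. Its level was 444, 432, 409, 464 and 168 CPM in short-term repair, 321, 333, 190, 289 and 267 CPM with the gel, and 357, 380, 152 and 341 CPM after injury only. The 3 ranges overlapped, and the lowest libraries were repair replicate 5, gel replicate 3 and injury replicate 3. These libraries also had the lowest summed myofibre markers of their groups, 53247, 103091 and 96879 CPM in the same order, and the part of this in the result was not tested.

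Long-term SCN4A was at 676, 716, 519, 642 and 603 CPM in repaired muscle and at 1001, 797, 855, 785 and 602 CPM in gel-treated muscle. Uninjured libraries ranged from 337 to 761 CPM with a median of 619 CPM. Of the 5 gel libraries, 4 lay above every uninjured library, while all 5 repair libraries lay within the uninjured range. On the TMM scale gel replicate 2, at 868 CPM, lay just below the highest uninjured library, at 871 CPM. The log2 difference of gel from uninjured muscle was 0.61 (SE 0.23), which did not pass (edgeR adjusted p = 0.325). Gel against repair gave 0.51 (SE 0.27, edgeR adjusted p = 0.383) and repair against uninjured muscle 0.09 (SE 0.23, edgeR adjusted p = 0.956). These fits did not pair muscles by animal code. With the code as a block, gel gave 0.88 against uninjured muscle and 0.95 against repair. Repair against uninjured muscle then gave -0.07, and none of these values passed. In the short term the log2 values were -0.31 (SE 0.42) for gel against repair, -0.17 (SE 0.45) for repair against injury and -0.47 (SE 0.45) for gel against injury, with edgeR adjusted p-values of 0.816, 0.855 and 0.600. The value for repair against injury turned to 0.32 when libraries were scaled by total count, a scaling that moves the median of all genes in this comparison to 0.39, and was -0.83 without repair replicate 4 and injury replicate 3, so it has no settled size or direction. Without those 2 libraries gel against injury gave -0.85 and gel against repair -0.02.

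SCN4A rose between terms in both kinds of repaired muscle. With the gel it rose by a log2 value of 1.87 (SE 0.37, edgeR adjusted p = 0.000136), from a mean of 280.0 to 808 CPM. With the repair only it rose by 0.98 (SE 0.36, edgeR adjusted p = 0.0255), from 383 to 631 CPM. Long-term libraries lay above all short-term ones of the same treatment, though with the repair only they overlapped on the TMM scale. Calls are common between terms: 46.2% of 12935 genes passed for the repair and 48.3% for the gel. Rises made up 18.2% and 21.8% of all genes tested. Groups with no overlap and a higher long-term CPM were found for 6.8% and 5.3% of genes. The call with the repair only was lost without short-term repair replicate 1 (edgeR adjusted p = 0.0521), without replicate 5 (0.0825) and without long-term repair replicate 2 (0.0577). Term and processing cannot be told apart, since long-term libraries were less deep and their files carry another style of column name.

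RUNX1 is a transcription factor of the core-binding family that acts on muscle fibres after denervation and is also made by blood cells. Its level was 36.9, 24.5, 9.46, 1.40 and 78.1 CPM in short-term repair and 17.3, 7.95, 37.3, 3.23 and 7.17 CPM with the gel. Injured muscle held 1.45, 0.928, 8.81 and 1.19 CPM. Injury replicates 1, 2 and 4 and repair replicate 4 were the 4 lowest of the 14 libraries, and injury replicate 3 lay among the treated ones. The same 4 libraries had the lowest summed macrophage markers, 20.2 to 64.2 CPM against 189 to 896 CPM in the other 10 libraries.

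The log2 difference of RUNX1 was 3.04 (SE 0.92) between repair and injury and 2.23 (SE 0.89) between gel and injury. Neither passed, with edgeR adjusted p-values of 0.322 and 0.220. Between gel and repair it was -0.81 (SE 0.78, edgeR adjusted p = 0.728), a value that ran from -1.38 without gel replicate 3 to -0.06 without repair replicate 5. Without repair replicate 4 and injury replicate 3 the first 2 values were 4.09 and 3.00, and the groups of repair and injury no longer overlapped, at 9.46 to 78.1 against 0.928 to 1.45 CPM. These libraries were left out for their values, so no test is read from that fit.

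By the long term RUNX1 was low in every group. Repaired muscle held 1.65, 0.537, 1.97, 2.37 and 0.862 CPM and gel-treated muscle 2.05, 0.866, 1.02, 1.34 and 0.393 CPM. Uninjured muscle ranged from 0.400 to 1.48 CPM with a median of 0.842 CPM, which rests on 6 to 21 counts a library. The repair group had 3 libraries above the uninjured range and the gel group 1. On the TMM scale repair replicate 1, at 1.46 CPM, fell below the highest uninjured library, at 1.54 CPM. The log2 difference from uninjured muscle was 0.67 (SE 0.35, edgeR adjusted p = 0.484) for the repair and 0.48 (SE 0.36, edgeR adjusted p = 0.519) for the gel, and -0.19 (SE 0.41, edgeR adjusted p = 0.833) between gel and repair. The gel value was 0.07 without gel replicate 1 and the repair value 0.40 without repair replicate 4. The value between gel and repair changed sign when long-term repair replicate 4 or gel replicate 5 was left out.

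Between terms RUNX1 fell by 3.87 on the log2 scale in repaired muscle (SE 0.66, edgeR adjusted p = 3.19e-05). In gel-treated muscle it fell by 3.20 (SE 0.66, edgeR adjusted p = 0.000241), and there every long-term library lay below every short-term one. Falls were called for 27.9% of genes with the repair and 26.5% with the gel, and 25.1% lay lower in the long term with no overlap in gel-treated muscle. All 8 macrophage markers tested fell as well with the gel, and 7 of 8 with the repair, and the part of this in the fall of RUNX1 was not tested.

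HDAC4 is a class IIa histone deacetylase that represses targets of MEF2 factors. In short-term repair its level was 24.8, 19.7, 9.33, 4.62 and 6.96 CPM. With the gel it was 7.97, 6.26, 5.44, 7.96 and 5.33 CPM, and after injury only 3.29, 3.13, 10.4 and 3.59 CPM. Repair replicates 1 and 2 stood well above all other libraries, and injury replicate 3 was above 3 of the 5 repair libraries. The log2 difference between repair and injury was 1.00 (SE 0.36), a 2.00-fold difference that did not pass (edgeR adjusted p = 0.322). It was 1.32 without repair replicate 4 and injury replicate 3. Gel against injury gave 0.31 (SE 0.35, edgeR adjusted p = 0.676), or 0.49 without those 2 libraries, and gel against repair -0.69 (SE 0.33, edgeR adjusted p = 0.489).

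Long-term HDAC4 was even across groups. Repaired muscle held 8.71, 9.50, 10.2, 9.71 and 7.36 CPM, gel-treated muscle 7.89, 7.66, 9.87, 7.62 and 8.81 CPM, and uninjured muscle 7.19 to 12.3 CPM with a median of 8.53 CPM. No operated library left the uninjured range. The log2 differences were 0.02 (SE 0.12) for repair and 0.04 (SE 0.12) for gel against uninjured muscle, and 0.02 (SE 0.14) between gel and repair, all near 0 with a sign that changed with the scaling or with single libraries. Their edgeR adjusted p-values were 0.989, 0.889 and 0.952.

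Between terms HDAC4 rose by 0.68 with the gel (SE 0.24, edgeR adjusted p = 0.0182) and differed by -0.09 with the repair (SE 0.23, edgeR adjusted p = 0.777). Rises were called for 21.8% of genes with the gel. The call for HDAC4 was lost without short-term gel replicate 3 (edgeR adjusted p = 0.0626). With libraries scaled by total count the rise was 0.34 (edgeR adjusted p = 0.394).

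NCAM1 encodes the neural cell adhesion molecule, which lies at the synapse in adult fibres and spreads over the surface of denervated and regenerating ones. Satellite cells, Schwann cells and natural killer cells make it too. Short-term repair held 469, 406, 213, 10.9 and 234 CPM, gel-treated muscle 202, 135, 376, 57.0 and 113 CPM, and injured muscle 17.3, 7.06, 118 and 20.5 CPM. Repair replicate 4 lay among the low injury libraries and injury replicate 3 among the gel libraries, and the other repair and gel libraries stood above the other injury ones.

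For NCAM1 the log2 difference was 2.51 (SE 0.80) between repair and injury, 5.70-fold, and 2.19 (SE 0.79) between gel and injury, 4.56-fold. Neither passed, with edgeR adjusted p-values of 0.322 and 0.193. Without both libraries that lay nearest to another group the values were 3.64 and 3.02. Gel against repair gave -0.32 (SE 0.70, edgeR adjusted p = 0.890), and -0.62 without those 2 libraries. Summed satellite cell markers overlapped between the groups, at 3.86 to 8.77 CPM with the repair, 4.01 to 28.3 CPM with the gel and 3.79 to 14.01 CPM after injury. Summed Schwann cell markers were 11.9 to 60.6, 11.2 to 55.4 and 27.3 to 151 CPM in the same order, highest in injury replicate 3. Summed lymphocyte and natural killer cell markers were 0.166 to 5.28, 1.70 to 13.3 and 0.217 to 1.75 CPM. Their part in the NCAM1 values was not tested.

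Long-term NCAM1 was at 48.4, 12.4, 58.4, 59.0 and 23.0 CPM in repaired muscle and at 30.9, 23.1, 37.4, 9.38 and 39.8 CPM in gel-treated muscle. Uninjured libraries ranged from 13.1 to 26.5 CPM with a median of 19.2 CPM. In each operated group 3 libraries lay above that range and 1 below it. On the TMM scale repair replicate 5, at 26.0 CPM, also lay just above the highest uninjured library, at 25.8 CPM. Repair against uninjured muscle gave a log2 difference of 0.99 (SE 0.28), 1.98-fold, which did not pass (edgeR adjusted p = 0.111). It passed without repair replicate 2, at 1.21 (edgeR adjusted p = 0.0103), where 2.72% of genes did, and with the animal code as a block it was 0.82 (edgeR adjusted p = 0.695). Gel against uninjured muscle gave 0.65 (SE 0.29, edgeR adjusted p = 0.344) and gel against repair -0.34 (SE 0.34, edgeR adjusted p = 0.622).

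Between terms NCAM1 fell by 2.28 with the repair (SE 0.55, edgeR adjusted p = 0.00132) and by 2.24 with the gel (SE 0.55, edgeR adjusted p = 0.00138). With the gel, all long-term libraries lay below all short-term ones, as they did for 25.1% of genes. Falls were called for 27.9% of genes with the repair and 26.5% with the gel.

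**Figure D2:**
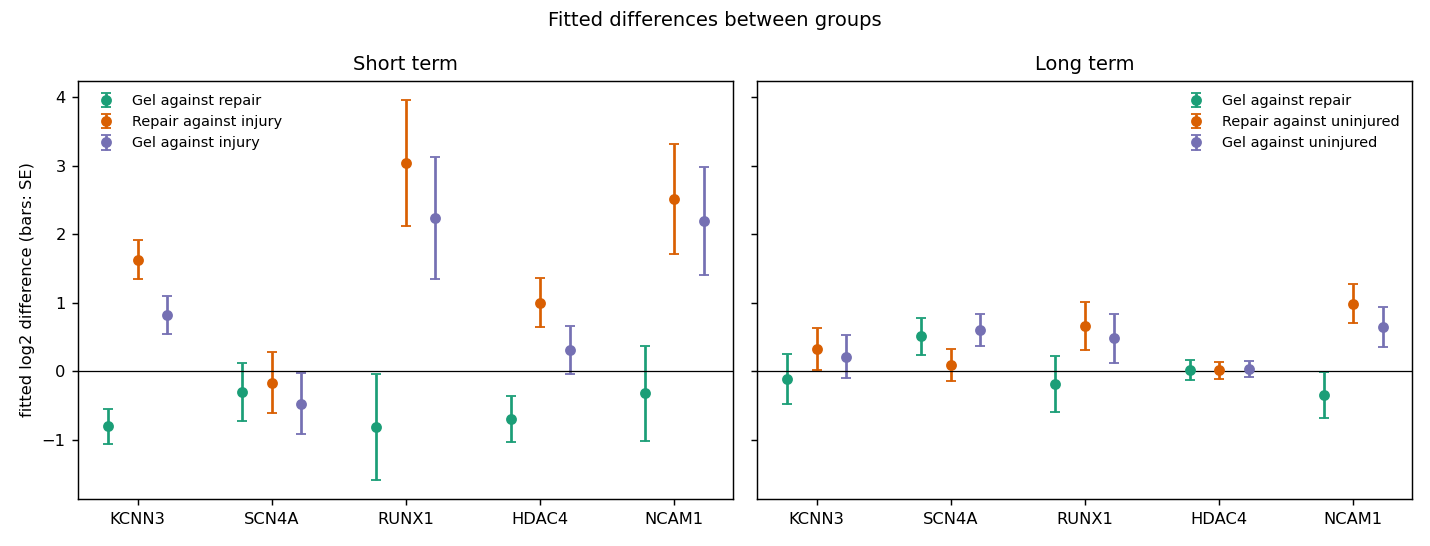
Fitted log2 differences of the 5 genes in the 3 short-term and 3 long-term comparisons, with bars of 1 standard error; the line marks 0. Short-term differences of KCNN3, RUNX1 and NCAM1 from injury lie above 0, and the HDAC4 values of the long term lie within 0.04 of 0.

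Among the members as a group, none of the 4 tested passed in a short-term comparison. In those 3 comparisons 0 of 13526 genes passed (0%) with edgeR, while 1404 genes for gel against repair, 1973 for repair against injury and 2493 for gel against injury had an unadjusted p under 0.05. DESeq2 called 127, 242 and 788 genes. Limma voom, weighting libraries by quality, called 3, 4703 and 3795. By DESeq2, RUNX1 and NCAM1 passed in repair against injury (adjusted p = 0.0165 and 0.0322), where 1.79% of genes did. By limma voom RUNX1, NCAM1 and HDAC4 passed there (adjusted p = 0.0141, 0.00513 and 0.00707), where 34.8% of genes did. In gel against injury NCAM1 passed by DESeq2 (adjusted p = 0.0376), where 5.83% of genes did, and RUNX1 and NCAM1 by limma voom (adjusted p = 0.0428 and 0.00423), where 28.1% did. In 1 edgeR fit over all 34 libraries RUNX1, HDAC4 and NCAM1 passed in repair against injury (adjusted p = 0.0183, 0.0239 and 0.0211), where 4.84% of genes did. In the same fit RUNX1 and NCAM1 passed in gel against injury (adjusted p = 0.0341 and 0.0251), where 8.39% did. In the long term 0 of 11605 genes (0%) passed with edgeR for gel against repair, with 1648 at an unadjusted p under 0.05, 7 by DESeq2 and 0 by limma voom. For repair against uninjured muscle 117 genes passed (1.01%), which became 0 with the animal code as a block, and for gel against uninjured muscle 1 gene passed (0.00862%); no member was among them.

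Whether the gel's effect differed between terms was tested as an interaction over 12935 genes, of which 2 passed. The effect was higher in the long term by 0.75 for KCNN3 (SE 0.47, a description, since it uses the libraries that chose it), by 0.89 for SCN4A (SE 0.50, edgeR adjusted p = 0.467) and by 0.77 for HDAC4 (SE 0.33, edgeR adjusted p = 0.341). For RUNX1 it was 0.68 (SE 0.89, edgeR adjusted p = 0.803) and for NCAM1 0.04 (SE 0.75, edgeR adjusted p = 0.992). The difference between the terms was not shown for any member tested.

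Set against the uninjured median, the short-term libraries showed which members moved together. NCAM1 stood 3.48 to 4.61 above it on the log2 scale in repair replicates 1, 2, 3 and 5, and its value in replicate 4 was -0.81. RUNX1 stood 3.49 to 6.54 above it in the same 4 libraries and 0.73 above it in replicate 4. KCNN3 was 1.39 to 2.47 above it in those 4 and 0.18 above it in replicate 4. SCN4A was below the uninjured median in all 14 short-term libraries, with values of -2.03 to -0.42, while HDAC4 was above it in 4 of 14. No uninjured library was labelled short term, so these ratios also hold any difference between the terms.

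**Figure D3:**
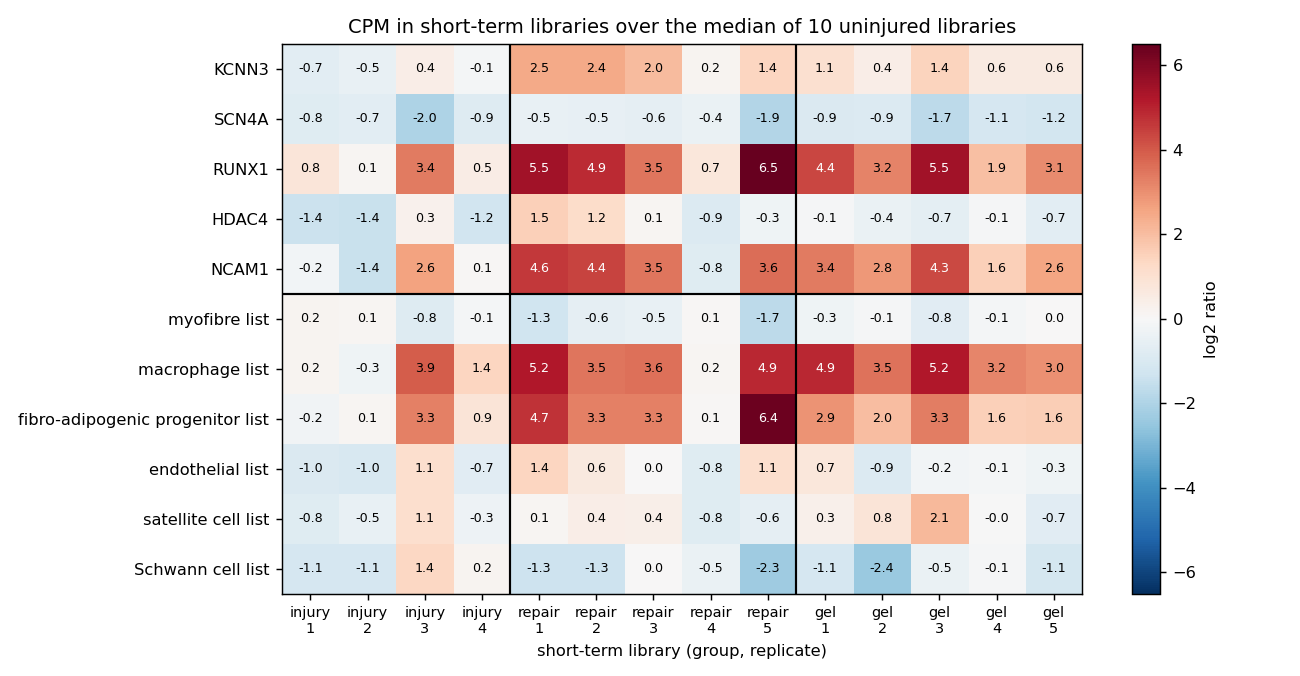
Log2 ratio of each short-term library's CPM to the median of the 10 uninjured libraries, for the 5 genes and for the summed CPM of 6 cell type marker lists; red is above and blue below. Repair replicate 4 is close to the other injury libraries than replicate 3 in RUNX1, NCAM1 and the macrophage and fibro-adipogenic lists. Injury replicate 3 is close to the other repair libraries in RUNX1 and those lists, but below them in NCAM1 (2.62) and KCNN3 (0.44).

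The summed macrophage and fibro-adipogenic progenitor markers moved with RUNX1 and NCAM1 across these libraries. The 8 macrophage markers found of 10 listed summed to 27.0 to 885 CPM in short-term repair, 189 to 896 CPM with the gel and 20.2 to 371 CPM after injury, against 8.21 to 41.6 CPM in uninjured muscle. The 5 fibro-adipogenic progenitor markers summed to 555 to 43503, 1534 to 5128 and 436 to 5066 CPM, against 239.6 to 890.3 CPM in uninjured muscle. All 8 macrophage markers had a fitted difference above 0 in repair against injury (median 1.79) and in gel against injury (median 2.03), and none passed. All 5 fibro-adipogenic progenitor markers were above 0 in repair against injury (median 1.17), but 3 of 5 in gel against injury (median 0.02). Not every cell type went this way. In repair against injury all 6 Schwann cell and all 3 satellite cell markers tested were below 0. In gel against injury 4 of the 6 Schwann cell markers were below 0 and all 3 satellite cell markers above it. The part of any of these markers in the member values was not tested.

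The other genes of the denervation response were read from a list of 13 without the members. All 13 had a fitted difference above 0 in short-term repair against injury, with a median of 1.04 against 0.02 over all genes, and 0 passed with edgeR. Leaving out repair replicate 4 and injury replicate 3 gave a median of 1.37 with 11 of 13 above 0. In gel against injury 10 of 13 were above 0 (median 0.58) and in gel against repair 10 of 13 were below 0 (median -0.27). Of the list, 11 genes were tested in the long term, 0 passed in each comparison, and the medians were 0.06 for gel against repair, 0.07 for repair and 0.18 for gel against uninjured muscle.

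The acetylcholine receptor subunits of the list showed the widest ranges. CHRNG, the embryonic gamma subunit, was at 4.95 to 508 CPM in short-term repair, 76.5 to 987 CPM with the gel and 1.30 to 131 CPM after injury, and at 0.821 to 11.8 CPM in uninjured muscle. Its log2 difference from injury was 2.39 (SE 1.31) with the repair and 3.37 (SE 1.38) with the gel. CHRND, the delta subunit, differed by 2.85 (SE 1.03) and 2.77 (SE 1.03), and CHRNA1, the alpha subunit, by 1.69 (SE 0.71) and 1.56 (SE 0.71). For all 3 subunits the treated groups overlapped the injury group, and none of these values passed, with edgeR adjusted p-values of 0.199 to 0.377.

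MUSK, the receptor kinase that organises the synapse, differed from injury by 2.10 (SE 0.82) with the repair and 1.42 (SE 0.80) with the gel. MYOG, the myogenic factor that drives receptor genes, differed by 0.66 (SE 0.32) and 0.39 (SE 0.32), and GADD45A, a stress gene raised by denervation, by 1.04 (SE 0.48) and 0.58 (SE 0.48). The edgeR adjusted p-values of these 3 genes ran from 0.322 to 0.542.

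Between terms, with the repair, 9 of 12 tested genes fell and 1 rose (median -1.74, against -0.11 over all genes), and with the gel 8 fell and 1 rose (median -1.50, against -0.09). Over all genes 27.9% fell with the repair and 26.5% with the gel. With the repair MYOG fell by 1.30 (SE 0.25, edgeR adjusted p = 0.000127) and GADD45A by 1.86 (SE 0.35, edgeR adjusted p = 0.000103). With the gel GADD45A fell by 1.74 (SE 0.35, edgeR adjusted p = 0.000199), CHRNG by 5.64 (SE 1.19, edgeR adjusted p = 0.000305) and CHRNB1, the beta subunit, by 1.04 (SE 0.24, edgeR adjusted p = 0.000832). The 1 rise was FBXO30 with the repair (0.48, SE 0.19) and FBXO32 with the gel (1.53, SE 0.42), both ubiquitin ligase genes, and that of FBXO30 was lost when libraries were scaled by total count. CHRNA1 fell with the repair by 2.05 (SE 0.57, edgeR adjusted p = 0.00428), and with the gel its value of -1.27 did not pass (edgeR adjusted p = 0.0591).

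**Figure D4:**
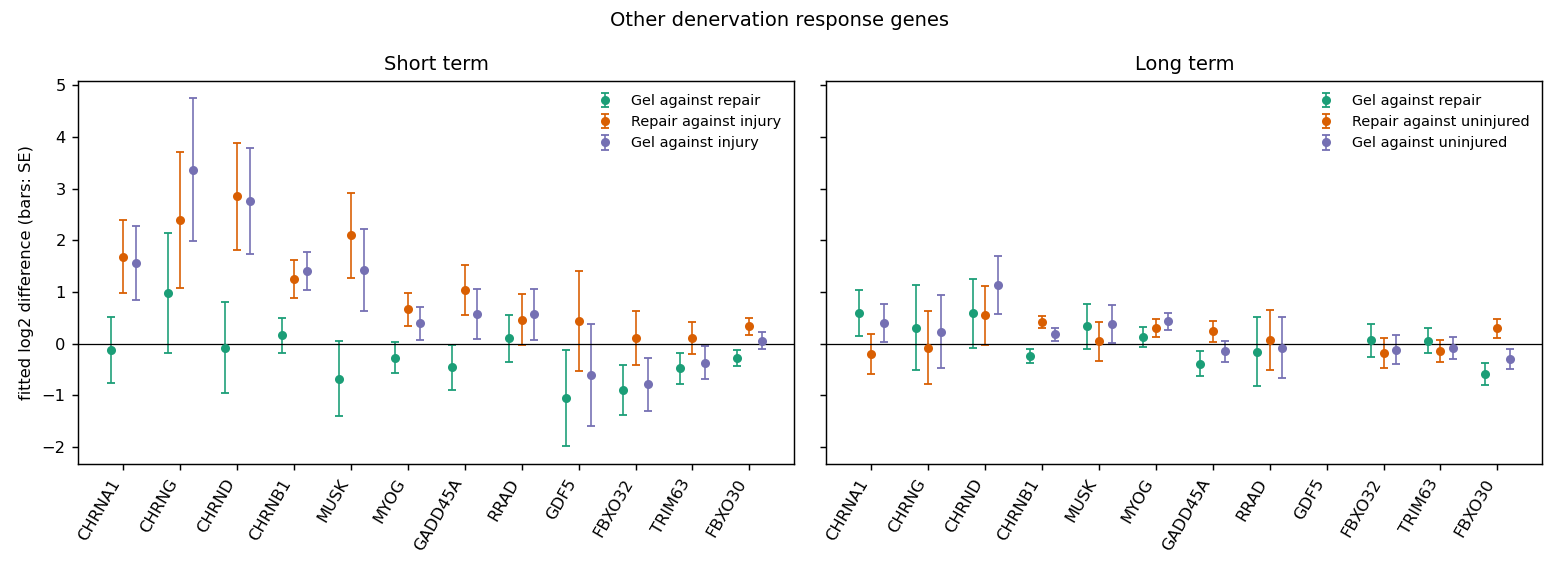
Fitted log2 differences of 12 of the 13 other denervation response genes, in 3 short-term and 3 long-term comparisons, with bars of 1 standard error. Short-term values against injury are spread from 0.11 to 2.85 for the repair, and those of the long term lie closer to 0; GDF5 was too low to be tested in the long term.

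KCNN3 was chosen for its higher value in short-term repair over injury, so the other channel genes are described without a comparison to it. Of 15 tested membrane channel genes, 12 had a value below 0 in short-term repair against injury (median -0.35), which became 8 of 15 with total count scaling, and 0 passed. Over all genes tested, 51.7% had a value above 0 in this comparison with TMM scaling. KCNN2, a second small-conductance potassium channel, was at 0.343 to 2.36 CPM in short-term repair and 0.320 to 3.53 CPM after injury, with a log2 difference of -0.61 (SE 0.63, edgeR adjusted p = 0.612). CLCN1, the chloride channel that steadies the resting membrane, was at 81.6 to 404 and 209 to 294 CPM, with -0.48 (SE 0.61, edgeR adjusted p = 0.684). Neither KCNN2 nor CLCN1 passed in any of the 8 comparisons.

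Between terms 5 of 15 channel genes rose and 2 fell with the repair, and the counts with the gel were also 5 and 2. Over all genes 18.2% rose and 27.9% fell with the repair, and 21.8% and 26.5% with the gel. Total count scaling made the channel counts 6 rises and 4 falls with the repair and 4 and 3 with the gel. SCN4B, an auxiliary sodium channel subunit, rose by 1.74 with the repair (SE 0.61, edgeR adjusted p = 0.0205) and by 3.40 with the gel (SE 0.65, edgeR adjusted p = 0.000107). KCNA7, a voltage-gated potassium channel, rose by 1.43 (SE 0.45) and 1.82 (SE 0.45), and KCNMA1, the large-conductance calcium-activated potassium channel, by 1.40 (SE 0.31) and 1.01 (SE 0.31). KCNJ2, an inward rectifier potassium channel, rose by 1.35 with the repair. RYR1, the calcium release channel, rose by 1.66 with the gel (SE 0.38, edgeR adjusted p = 0.000724). KCNN4, an intermediate-conductance potassium channel also made by immune cells, was among the 2 that fell in each.

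In the class IIa deacetylase and MEF2 list no gene passed within a term, among 14 tested in the short and 13 in the long term. HDAC9, a relative of HDAC4, gave -0.01 (SE 0.49) in short-term repair against injury, and MEF2C, a target of these deacetylases, -0.51 (SE 0.31). DACH2, which HDAC4 is known to repress, was at 0.196 to 1.56 CPM in short-term repair and 0.124 to 0.743 CPM after injury, with 0.80 (SE 0.54), and was too low for the long-term test. Between terms 6 of 14 genes rose and 1 fell with the repair, and 5 rose and 1 fell with the gel, HDAC7 being the 1 that fell in each. The shares over all genes were 18.2% and 27.9% with the repair and 21.8% and 26.5% with the gel. MEF2D rose by 1.62 (SE 0.22, edgeR adjusted p = 1.01e-06) and by 1.73 (SE 0.22, edgeR adjusted p = 2.72e-07), and MEF2C by 1.40 with the repair (SE 0.29, edgeR adjusted p = 0.000317). NCOR1, a corepressor that binds class IIa deacetylases, rose by 0.66 with the repair, and CAMK2G, a calcium-dependent kinase that can drive them out of the nucleus, by 1.63 with the gel. With total count scaling these counts were 3 rises and 2 falls with the repair and 3 and 1 with the gel.

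Of the RUNX list, RUNX2, a relative best known from bone, followed RUNX1 in the short term with 3.34 (SE 1.06) for repair and 1.76 (SE 0.99) for gel against injury, edgeR adjusted p-values of 0.322 and 0.356. CBFB, the shared partner subunit, gave 0.85 (SE 0.34) and 0.61 (SE 0.34). Both fell between terms. RUNX2 fell by 3.16 with the repair (SE 0.70, edgeR adjusted p = 0.000619) and 2.59 with the gel (SE 0.72, edgeR adjusted p = 0.00397). CBFB fell by 1.71 (SE 0.29, edgeR adjusted p = 2.20e-05) and by 1.09 (SE 0.28, edgeR adjusted p = 0.00203).

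In the list of NCAM relatives and modifiers 5 genes were tested in the short term and 4 in the long term, and none passed within a term. ST8SIA2, which adds polysialic acid to NCAM1, stood at 0 to 0.906 CPM over all libraries and entered no test. Between terms FGFR1, a growth factor receptor that NCAM1 can engage, fell by 1.47 with the repair (SE 0.29, edgeR adjusted p = 0.000186) and by 0.97 with the gel (SE 0.29, edgeR adjusted p = 0.00678). L1CAM, a related adhesion molecule, rose by 0.92 with the repair (SE 0.35, edgeR adjusted p = 0.0312) and by 1.57 with the gel (SE 0.35, edgeR adjusted p = 0.000598). The rise of L1CAM with the repair was lost with total count scaling.

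The genes most like each member were ranked by Pearson correlation of log2 CPM over the 34 libraries, after the mean of each term was subtracted. These correlations are descriptions, since libraries share their composition and differences between the groups of a term remain in them. For SCN4A they were RYR1 (0.94), MLXIP (0.93), ATP2A1 (0.93), MAN2A2 (0.92) and NEURL1 (0.91). For RUNX1 they were EMILIN1 (0.91), PYGB (0.91), NUMBL (0.90), S100A11 (0.90) and TMED3 (0.89), and for NCAM1 LTBP1 (0.89), MAP1A (0.88), EVI2A (0.88), APP (0.87) and MICAL1 (0.86). The values were lower for KCNN3, with 4 of its 5 being PLA2G4C (0.78), ABCC5 (0.75), SH3PXD2A (0.71) and TBC1D8 (0.71). They were lowest for HDAC4, with WDFY2 (0.72), BAZ2A (0.71), KIAA1217 (0.69), PKD1 (0.68) and PRNP (0.68). With Spearman's measure 2 or 3 of each 5 stayed among the first 5, and with the short-term or long-term libraries alone 0 to 2.

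Among the members themselves RUNX1 and NCAM1 were the closest pair, at 0.83. KCNN3 correlated with RUNX1 at 0.62, with NCAM1 at 0.57 and with HDAC4 at 0.50, but with SCN4A at -0.06. The short-term rise that chose KCNN3 is part of these values. SCN4A ran against RUNX1 (-0.43) and NCAM1 (-0.40).

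Codes in the names of the deposited files tie each long-term operated muscle to 1 uninjured muscle, and they are read here as animals, which the labels do not state. Within these pairs NCAM1 was higher on the operated side in 4 of 5 animals with the repair and in 4 of 5 with the gel. KCNN3 was higher in 4 of 5 with the repair and 2 of 5 with the gel, and RUNX1 in 4 of 5 and 3 of 5. SCN4A was higher in 1 of 5 with the repair and 4 of 5 with the gel. The mean log2 difference of SCN4A was 0.01 ± 0.56 (SD, n = 5) with the repair and 0.72 ± 0.67 (SD, n = 5) with the gel. HDAC4 was higher in 3 of 5 in each group, at 0.02 ± 0.49 and -0.05 ± 0.23 (SD, n = 5). These counts use CPM of the total count. On the TMM scale KCNN3 of repair replicate 4 was lower on the operated side, at 34.9 against 36.5 CPM. HDAC4 of gel replicate 1 was then higher on that side, at 10.9 against 9.45 CPM.

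KCNN3 levels of the operated and uninjured sides went together. Animals with a low uninjured level, 12.1 and 14.8 CPM, also had the 2 lowest operated levels, 15.6 and 14.01 CPM, and those with the highest, 39.6 and 39.3 CPM, had operated levels of 50.5 and 63.6 CPM. Over the 10 animals, with operated levels centred on their group, Pearson's r was 0.83 (permutation p = 0.00166) and Spearman's rho 0.83 (permutation p = 0.00518), 2-sided and not adjusted. Without the 2 animals farthest from the median r was 0.68. This was 1 of 5 relations computed, and it was noticed in these data. An r at least as high was found for 110 of 11605 genes, 0.948%. SCN4A gave an r of -0.58, RUNX1 0.06, HDAC4 -0.45 and NCAM1 -0.15, with permutation p-values of 0.0664, 0.846, 0.198 and 0.697.

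**Figure D5:**
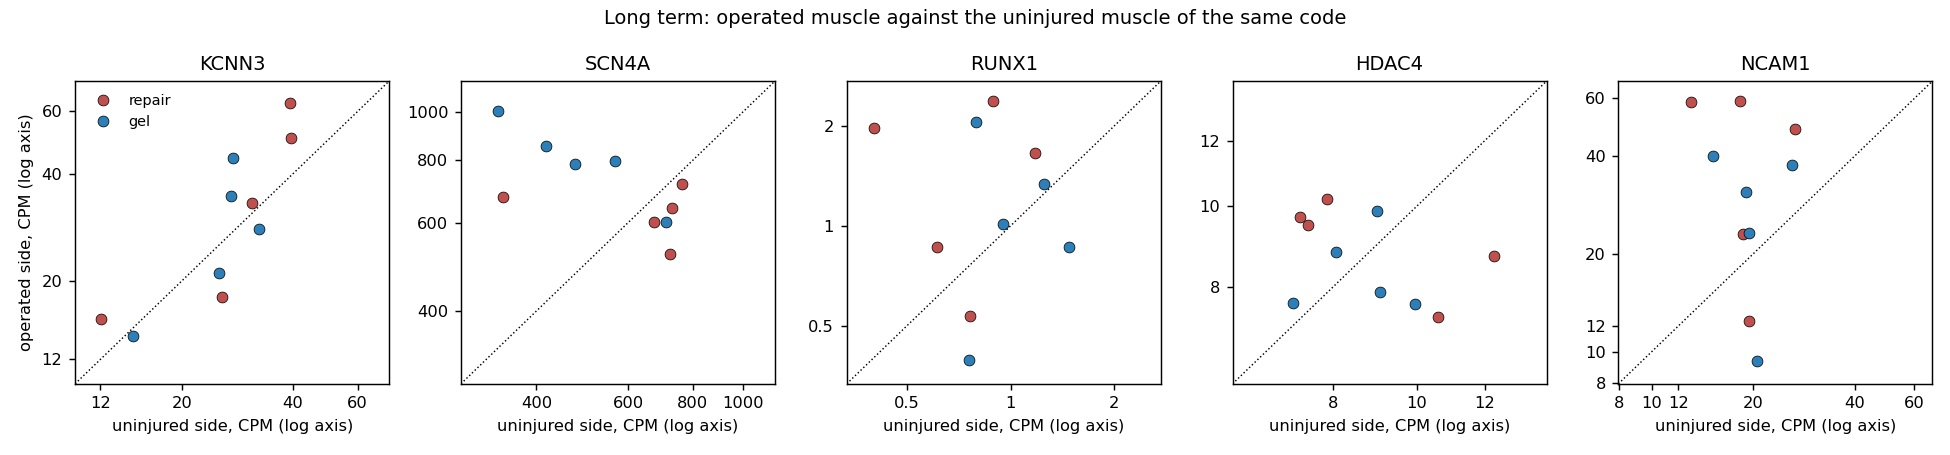
Long-term CPM of each gene on the operated side against the uninjured side of the same code, on log axes, for 5 animals with the repair (red) and 5 with the gel (blue); the dotted line marks equal levels. KCNN3 points run along the line, 4 of 5 gel points of SCN4A lie above it, and NCAM1 lies above it in 8 of 10 animals.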

How the data were processed

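The deposited files hold raw read counts per gene, 1 column a library, and the submitters' processing notes name STAR, edgeR and the OryCun2.0 build without saying how each was used. The RNA was extracted and the libraries made at a commercial laboratory, per the labels' protocols. Of 18210 rows a file, 26 with dates in place of gene names were dropped, which held up to 0.163% of any library's counts, and 15 rows of 7 repeated symbols were summed, which left 18176 genes. No within-group pair of 91 was identical, and counts within each pair differed by more than sampling noise.

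The main test was edgeR 4.0.16's quasi-likelihood test with robust fitting, TMM scaling and filterByExpr, under R 4.3.3. It ran within each term, and over all 34 libraries for comparisons between terms, which left 13526, 11605 and 12935 genes. These fits held group means only and did not pair operated and uninjured muscles of the same animal code. DESeq2 1.42.0 and limma 3.58.1 were alternatives. Tests were tried on simulated data first. The members and lists were chosen with earlier results of these data known. Named genes were the members, 5 most like each, a set of 15 fixed by name, and up to 3 called genes a list and direction. Same-numbered libraries were not paired: deviations correlated at -0.359 to 0.389 in the short term, with 5 of 13 pairs over 0.1. Leaving out 2 libraries and scaling by total count were alternatives chosen after seeing the data. No sequence was used here, and values of 2 named genes are not reported here.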

Additional observations from a re-analysis of the deposited data

Results flagged for a closer look

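Single libraries far from the rest of their group were found in 4 of 30 sets of member values. The rule used flags about 1 in 20 sets of normally distributed values. CPM need not be normal and the 5 genes share their libraries, so that rate is no measure of chance here. Injury replicate 3 accounted for 3 of the 4. There RUNX1 was at 8.81 CPM with the nearest injury library at 1.45 CPM, HDAC4 was at 10.4 CPM with the nearest at 3.59 CPM, and NCAM1 was at 118 CPM with the nearest at 20.5 CPM. The other was SCN4A in short-term repair replicate 5, at 168 CPM with the nearest repair library at 409 CPM.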

How the results depend on the processing

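Counts of genes past the threshold moved widely with the method. In the order gel against repair, repair against injury and gel against injury, short term, where edgeR called 0, DESeq2 called 127, 242 and 788 genes, limma voom 3, 4703 and 3795, 1 fit over all 34 libraries 93, 626 and 1085, and leaving out repair replicate 4 and injury replicate 3 gave 13, 4556 and 2577. Fitting only the 2 groups compared gave 7 for gel against injury and 63 for repair against uninjured muscle. For gel against repair, repair against uninjured and gel against uninjured muscle, long term, DESeq2 called 7, 234 and 15, and the fit over all libraries 1, 9 and 0. Limma voom called 27 for repair against uninjured muscle, and total count scaling 0 for gel against uninjured muscle. The cause was not tested.

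Leaving out 1 library at a time gave 0 to 2 genes for gel against repair, 0 to 34 for repair against injury (34 without repair replicate 4) and 0 to 382 for gel against injury (382 without injury replicate 3). In the long term it gave 0 to 0, 0 to 319 for repair against uninjured muscle (0 without repair replicate 1 or 3, 319 without replicate 2) and 0 to 1 for gel against uninjured muscle. Between terms it gave 4699 to 6858 with the repair and 5316 to 6874 with the gel.

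Libraries that share a title number were not shown to pair: in the long term deviations of gel and repair correlated at -0.142 to 0.0977. With the number as a replicate block 3236 genes were called between terms with the repair, and SCN4A (edgeR adjusted p = 0.0640) and NCAM1 (0.123) with the repair and HDAC4 with the gel (0.0603) missed the threshold. The block moved SCN4A in repair against injury to 0.0519 and HDAC4 between terms with the repair to 0.0504. Libraries with the same animal code correlated at -0.262 to 0.382, with 6 of 10 over 0.1. That block gave 0 calls for repair and 0 for gel against uninjured muscle, and values of 0.13 for KCNN3 in gel against repair and, for repair against uninjured muscle, -0.0674 for SCN4A and -0.0524 for HDAC4.

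Of 702 alternative values of the 36 member results that carry a test, 645 kept direction and side of the threshold, 8 lost the call, 19 gained it and 30 changed sign. SCN4A in repair against injury was 0.32 with total count scaling. HDAC4 in the long term was -0.0589 by limma voom and -0.122 with total count scaling for gel against repair, -0.0374 and -0.0856 for gel against uninjured muscle, and -0.00047 for repair against uninjured muscle in the fit of those 2 groups. Leaving out 1 library, SCN4A ranged from -0.519 to 0.0414 in repair against injury. In gel against repair, long term, KCNN3 ranged from -0.43 to 0.16, RUNX1 from -0.590 to 0.0822 and HDAC4 from -0.0427 to 0.0652. Against uninjured muscle HDAC4 ranged from -0.0278 to 0.0690 with the repair and -0.0268 to 0.0790 with the gel, and KCNN3 from -0.11 to 0.40 with the gel. HDAC4 between terms with the repair ranged from -0.25 to 0.17. In short-term gel against repair, SCN4A ranged from -0.54 to -0.0265 and NCAM1 from -0.68 to -0.0923. Long-term KCNN3 in repair against uninjured muscle ranged from 0.0506 to 0.50, and NCAM1 in gel against repair from -0.56 to -0.11. The KCNN3 correlation across animals was 0.77 on the TMM scale, where 1.94% of genes were as high. Depth limits RUNX1, which had 5 to 32 counts in long-term libraries.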

Other observations

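Proliferation markers, 4 genes of dividing cells, summed to 0.665 to 63.0 CPM in short-term repair, 5.64 to 31.6 CPM with the gel and 0.577 to 6.73 CPM after injury. Uninjured muscle held 0.205 to 3.37 CPM. In the long term all 7 macrophage markers tested had a fitted value above 0 in repair against uninjured muscle (median 0.90) and in gel against uninjured muscle (median 0.37), and below 0 in gel against repair (median -0.64), and none passed with edgeR.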
